A study of Mus musculus with 54 samples.

Results

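Clone T is 1 of the 2 clones of the mouse mammary carcinoma line 4T1 that the study's labels call intravasating, and its RNA was compared here with that of the 21 clones labelled non-intravasating. All 23 clones had been grown from single sorted 4T1 cells, kept in the same medium with 5% fetal bovine and 5% fetal calf serum, and scored in a pool for their entry into the blood vessels. The members were the 2 libraries of clone T, lettered A and B, of 54 libraries in the series, against 42 libraries of the 21 other clones, with 2 per clone. Clone E, the other intravasating clone, and 2 lung metastases and 2 orthotopic tumors, with 2 libraries per clone or specimen, were only looked up. The source of every library is given as the 4T1 line, no transgene or treatment is named, and the labels give no strain, age or sex for the mice. Clone T is a single clone, so a difference between it and the other clones cannot be told apart from what any 1 clone has of its own.

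4T1 is a line from a mammary tumor of a BALB/c mouse that spreads from the mammary gland to the lung and other organs. Intravasation, the passage of tumor cells through a vessel wall into the blood, is an early step of that spread, and involves loosening of cell junctions, degradation of basement membrane and contact with endothelium. Serpine2 and Slpi, which the study followed, encode secreted inhibitors of serine proteases that act in coagulation and at sites of inflammation. In epithelial to mesenchymal transition, transcription factors such as Zeb1 repress genes of epithelial junctions.

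The libraries of clone T held 18985628 and 15581390 recovered reads, with 14998 and 15108 genes that had a read. The 42 libraries of the non-intravasating clones held between 8849257 and 27304778 reads (median 16483508.5), with 14130 to 16500 such genes. Across genes, the A and B libraries correlated with r = 0.997 in clone T, against 0.995 to 0.998 in the other clones, and no pair was identical. Levels are normalized counts, which set libraries to a common depth but not genes to a common length. Differences are on the authors' deposited log2 scale, which compresses low counts. Whether A and B of a clone were separate cultures is not stated. The p-values built on libraries therefore set differences between clones only against the spread between A and B, which may be technical. The 9 defining markers of 4T1 cells, among them Krt8, Krt18, Epcam and Vim, summed to 135000 counts in clone T, against 86400 to 167000 in the non-intravasating clones, and none of the 9 was at 0 in clone T. Vim alone had 78881 and 60999 counts in T and so made up much of that sum. By the rule of at least 11 clones, described below, 4 of the 9 were lower in T (Epcam, Cdh1, Krt19 and Cd24a). Higher were 2, Vim and Spp1, and the median difference was -0.18. Over all tested genes, 8.66% were lower and 10.3% higher.

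Of 13632 genes with at least 10 normalized counts in at least 2 of the 44 libraries, 4 lay outside the spread of the 21 clones in clone T. Fam83a, Pgbd5 and Slc35f3 were higher (3 genes, 0.022% of those tested), and Chn1 was lower (1 gene, 0.00734%). With no filter on low values, 59 genes were higher and 1 was lower. The test, limma on 1 value per clone with Benjamini-Hochberg adjustment over all tested genes, asks whether the single value of T lies beyond the variation between clones and assumes that T varies as they do. At an unadjusted p under 0.05, 217 genes were higher and 73 lower.

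Fam83a, on chromosome 15 from 57984587 to 58010706 (mm10), encodes a protein that in human breast cancer cells acts in signalling from the EGF receptor. It had 273 and 271 counts in clone T, against 0.457 in the lowest, 4.89 in the median and 27.7 in the highest non-intravasating clone. Both libraries of T were far above every other clone, and T stood 55.6-fold over the median clone. On the log2 scale T was 2.78 ± 0.25 (SE) above the mean of the 21 clones (limma adjusted p = 1.19e-06).

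Slc35f3, on chromosome 8 from 126138398 to 126395987, belongs to a family of nucleotide sugar transporters and has been described as a thiamine transporter in humans. It had 96.9 and 130 counts in clone T, against 0, 2.86 and 22.6 in the lowest, median and highest other clone. No other clone came near T, and the difference was 1.99 ± 0.26 (limma adjusted p = 0.000395). Pgbd5, on chromosome 8 from 124369049 to 124433936, is a gene derived from a piggyBac transposase. It had 170 and 151 counts in clone T, against 0, 3.40 and 40.4 in the other clones, a difference of 2.26 ± 0.33 (limma adjusted p = 0.00137). The groups did not overlap for either gene. On the scale of log2(normalized count + 1), where low counts spread more widely, Slc35f3 (limma adjusted p = 0.491) and Pgbd5 (limma adjusted p = 1.0) no longer passed, and Fam83a and Chn1 did.

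Chn1, on chromosome 2 from 73610660 to 73775367, encodes chimaerin 1, which switches off the GTPase Rac. It had 91.4 and 67.7 counts in clone T, against 383, 572 and 726 in the lowest, median and highest other clone. The 21 clones lay within a narrow range that T fell well below. The difference was -2.15 ± 0.28 (limma adjusted p = 0.000395). Slc2a3, the glucose transporter GLUT3, was next in order of p and did not pass, with 42.1 and 26.4 counts in clone T, against 0, 0.906 and 14.5 in the other clones (difference 1.18 ± 0.26, limma adjusted p = 0.356). Without clone G it passed (limma adjusted p = 0.0188). Without clone S, 6 genes were higher in place of 3, the additional ones being 5031410I06Rik, Gm10220 and Gm10471.

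None of these 4 genes was shifted in the same way in the other intravasating clone, whose levels are set against the same 21 clones. Fam83a had 272 counts in clone T and 3.79 in clone E, Slc35f3 had 113 and 4.11, and Pgbd5 had 161 and 3.20. Chn1 had 79.5 counts in clone T and 647 in clone E. The levels of E lay inside the range of the non-intravasating clones for all 4.

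**Figure D1:**
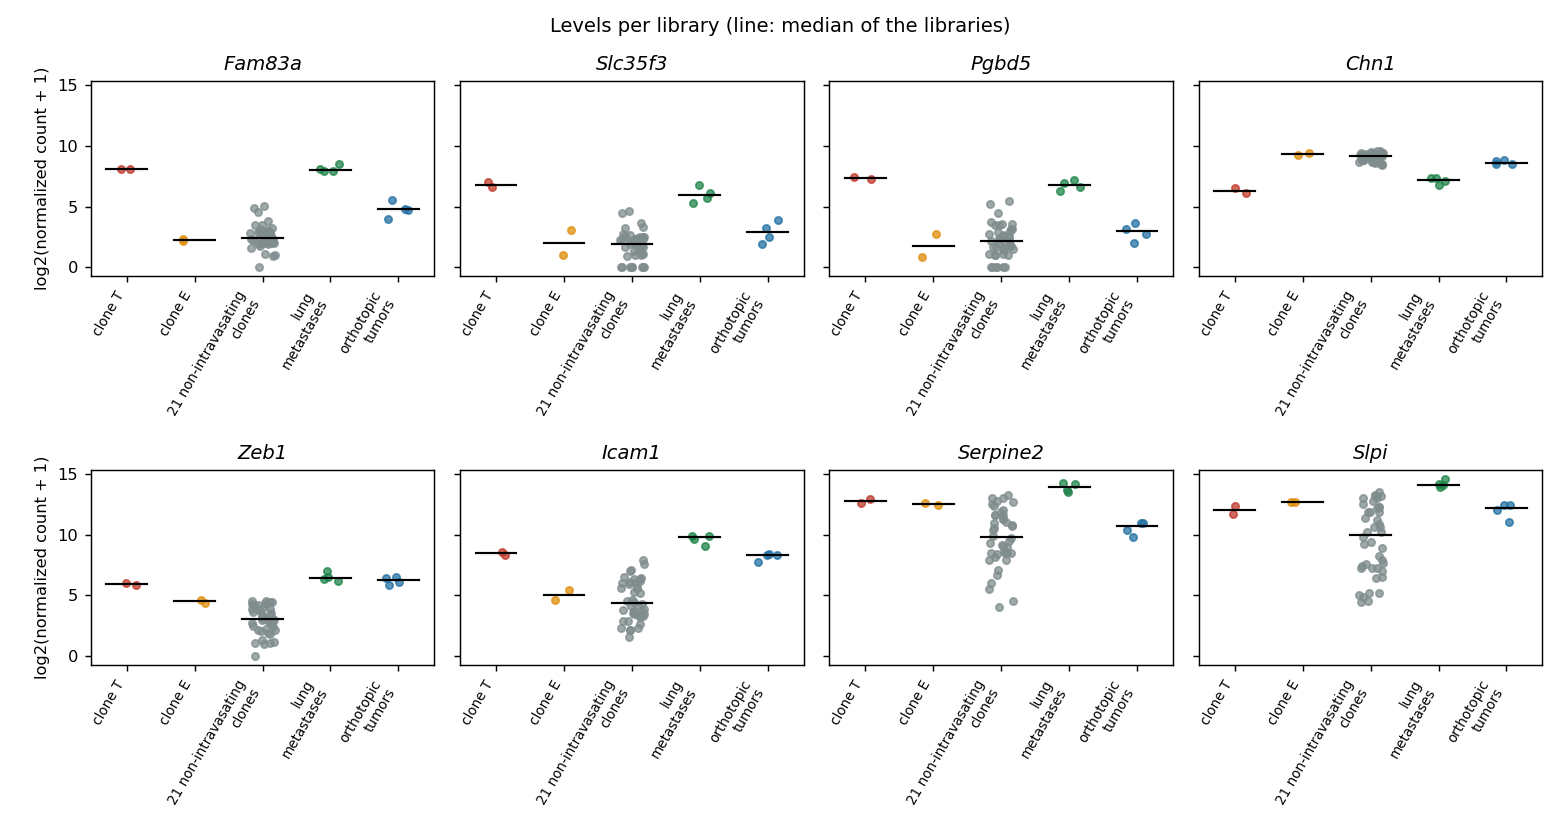
Normalized counts of 8 genes in each library, as log2(normalized count + 1), for clone T, clone E, the 21 non-intravasating clones, the lung metastases and the orthotopic tumors; points are libraries and lines are medians. Fam83a, Slc35f3 and Pgbd5 are high in clone T and in the lung metastases, Chn1 is low in both, and Serpine2 and Slpi in clone T lie within the range of the non-intravasating clones.

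Serpine2, on chromosome 1 from 79794317 to 79858665, encodes protease nexin-1, which inhibits thrombin and plasminogen activators. It had 7666 and 6329 counts in clone T, against 19, 897 and 9030 in the lowest, median and highest non-intravasating clone. Clone T was above 19 of the 21 clones and below 2, so the groups overlapped. Its difference from the mean of the clones was 2.76 ± 1.91 and did not pass (limma adjusted p = 1.0). Slpi, on chromosome 2 from 164354070 to 164356507, encodes an inhibitor of leukocyte elastase. It had 5153 and 3405 counts in clone T, against 26.7, 1037 and 10949 in the other clones, with 15 clones below T and 6 above it. The difference was 2.18 ± 2.33 (limma adjusted p = 1.0). The SD between the 21 clones was 2.02 for Serpine2 and 2.47 for Slpi on the same scale. Clone E had 5951 counts of Serpine2 and 6509 of Slpi, which like those of T were above the median clone and inside the range. The study picked both genes from these same libraries, so this is not independent evidence.

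The study's own rule was less strict, since it asked for a difference from at least 11 of the other clones. Applied to clone T alone, with limma contrasts between T and each clone, 1409 genes were higher (10.3% of those tested) and 1181 were lower (8.66%). A gene called in this way can lie inside the range of the clones, as Pdgfra did, which was higher than 12 clones and lower than 8. Of the 1409, 3 stood below the mean of the clones, and of the 1181, 5 stood above it. This rule measures T against the differences between A and B libraries, and without library A of clone T it called 794 and 743 genes. In the gene lists that follow, "higher" and "lower" mean called by this rule, and the shares of 10.3% and 8.66% are those to read each list against. The 37 lists held 777 entries found in the table, of which 637 were tested.

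Many genes of the epithelial state were lower in clone T. Of 25 tested genes of epithelial junctions, 12 were lower and 1 was higher, with a median difference of -0.30, against -0.008 over all tested genes. Ocln, the tight junction protein occludin, had 211 and 144 counts in clone T, against 49.1, 423 and 1666 in the lowest, median and highest other clone. Epcam, an epithelial adhesion molecule, had 1678 and 1535 counts, against 151, 3474 and 16782. Both genes of T lay in the lower part of a wide range and overlapped with other clones. Among the others that were lower were Cdh1, Cldn4, Tjp1, Cgn, Marveld3, Dsp, Pkp3, Ppl and Perp, which encode components of adherens junctions, tight junctions and desmosomes. Dsc2, a desmosomal cadherin, was the exception, with 86.0 and 89.9 counts in clone T, against a median of 24.7. In clone E, Ocln (233 counts), Epcam (2234), Perp (2823) and Dsc2 (17.6) were below the median clone, and Ppl (2971) was above it.

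Of 15 tested regulators of the epithelial state, 7 were lower and 0 were higher, with a median of -0.44. Esrp1, a splicing factor of epithelial cells, had 18.3 and 19 counts in clone T, against 2.80, 244 and 4955 in the lowest, median and highest other clone. Grhl2, a transcription factor that maintains junction genes, had 391 and 365 counts, against 120, 1021 and 2131. The membrane protease Prss8 had 42.1 and 42.3 counts in clone T, against a median of 114, and was above 1 of the 21 clones. Ovol1, a repressor of Zeb genes, had 8.23 and 10.6 counts, against a median of 43.9. Elf3, Esrp2 and St14 completed the 7. Clone E had 16.4 counts of Esrp1, 525 of Grhl2, 92.2 of Prss8 and 25.3 of Ovol1, each below the median clone. The single-value test passed none of the epithelial genes, and Esrp1 differed by -2.12 ± 2.33 (limma adjusted p = 1.0).

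Among 11 tested transcription factors of epithelial to mesenchymal transition, 2 were higher and 1 was lower. Zeb1, a repressor of epithelial genes that binds E-box sequences, had 56.7 and 63.4 counts in clone T, against 1.18, 8.44 and 22.1 in the lowest, median and highest other clone. Both libraries of T were above all 42 others, and the difference of 1.13 ± 0.28 did not pass over all genes (limma adjusted p = 0.967). Foxc2 had 427 counts in both libraries of T, against 11.6, 165 and 530, and T was above 20 of the 21 clones. Sox4 was lower, with 560 and 448 counts in T, against a median of 708. Clone E had 21.9 counts of Zeb1 and 265 of Foxc2.

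The promoters of the lower epithelial genes are shown because the E-box that Zeb1 binds can be read from them directly. The window runs from 250 bases before to 50 bases after the annotated start (RefSeq, GRCm38.p6), and capitals mark the motif CAGGTG, which on the other strand reads CACCTG. Of the 19 lower genes in the epithelial junction and regulator lists, 7 had a promoter in the table and 5 of these held the motif on either strand. Of all 40 tested genes of both lists, 19 had a promoter and 13 of these held it. Of 27025 genes with a promoter, 22.6% held it. Epcam is given at chr17:87635729-87636028 on the plus strand, and Ocln at chr13:100552449-100552748, Cldn4 at chr5:134946885-134947184 and Elf3 at chr1:135258423-135258722, all on the minus strand and written 5′ to 3′. Ocln has 2 annotated starts, of which 1 is shown. The window shown holds the motif at 2 places. That of the other start, at chr13:100552669-100552968, overlaps it and holds 1 of these same 2 places. Cldn4 and Elf3 were picked after their values were seen.
Epcam: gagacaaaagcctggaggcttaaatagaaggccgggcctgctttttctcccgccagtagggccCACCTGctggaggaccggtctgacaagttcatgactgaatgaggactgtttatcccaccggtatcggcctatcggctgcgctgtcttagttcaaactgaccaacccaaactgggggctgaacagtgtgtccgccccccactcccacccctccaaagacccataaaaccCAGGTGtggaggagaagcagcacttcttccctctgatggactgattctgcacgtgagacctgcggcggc
Ocln: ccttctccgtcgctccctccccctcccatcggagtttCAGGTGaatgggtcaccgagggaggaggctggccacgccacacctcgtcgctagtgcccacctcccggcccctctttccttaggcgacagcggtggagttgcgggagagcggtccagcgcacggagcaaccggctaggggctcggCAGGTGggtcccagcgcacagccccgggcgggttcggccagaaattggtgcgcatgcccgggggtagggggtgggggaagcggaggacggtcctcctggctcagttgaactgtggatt
Cldn4: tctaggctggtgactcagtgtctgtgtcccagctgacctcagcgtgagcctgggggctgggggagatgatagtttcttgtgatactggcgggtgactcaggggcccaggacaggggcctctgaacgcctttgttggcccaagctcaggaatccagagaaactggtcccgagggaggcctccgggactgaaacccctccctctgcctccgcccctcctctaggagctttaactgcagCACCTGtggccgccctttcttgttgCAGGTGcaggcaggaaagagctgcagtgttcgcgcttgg
Elf3: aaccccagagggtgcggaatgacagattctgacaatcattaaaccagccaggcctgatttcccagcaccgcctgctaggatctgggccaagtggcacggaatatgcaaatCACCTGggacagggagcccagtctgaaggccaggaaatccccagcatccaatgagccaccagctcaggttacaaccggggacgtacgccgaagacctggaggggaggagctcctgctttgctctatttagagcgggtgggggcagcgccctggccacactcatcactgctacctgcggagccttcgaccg
In the windows shown, Epcam, Ocln and Cldn4 each carry the motif at 2 places and Elf3 at 1. The difference of clone T from the mean of the other clones was -0.83 for Epcam, -1.17 for Ocln, -0.68 for Cldn4 and -0.44 for Elf3. Dsp, whose promoter also held the motif, differed by -0.09, and Cgn and Tjp1, whose promoters did not hold it, differed by -0.36 and -0.30. A match describes these letters only, and binding was not measured.

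Mesenchymal genes did not move in 1 direction. Of 16 tested, 4 were higher (Vim, Pdgfra, Fbn1 and Tnc) and 3 were lower (Tpm2, Postn and Sparc), with a median of 0.04. Vim, the intermediate filament vimentin, had 78881 and 60999 counts in clone T, against 6443, 49614 and 77124 in the lowest, median and highest other clone. Tnc, the matrix protein tenascin-C, had 620 and 686 counts, against a median of 329. Sparc, a matrix protein that binds collagen, had 3390 and 3178 counts in T, against a median of 6142. Postn, or periostin, was at 0 in both libraries of T, against a median of 5.03, and ran up to 3664 counts in clone A. Among 15 keratins and laminin-332 genes, 8 were lower and 1, Krt14, was higher, with a median of -0.18. Krt7 had 2899 and 2123 counts in clone T, against 211, 7546 and 18410, and Krt19 had 657 and 564, against a median of 964.

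Matrix proteases were lower more often than higher. Of 26 tested, 7 were lower and 1, Adamts9, was higher, with a median of -0.24. Mmp11, a metalloprotease first described in breast tumor stroma, had 151 and 150 counts in clone T, against 209, 511 and 1451 in the lowest, median and highest other clone, so T lay below all of them. Mmp14, which cleaves collagen at the cell surface, was also below all 21 clone means. Adamts1 had 661 and 679 counts, against a median of 1497, and Mmp15 had 2.74 and 2.11, against 14.9. Of 17 tested genes in the list of secreted protease inhibitors, 5 were higher (Serpine2, Slpi, Serping1, Cst3 and Timp1) and 3 were lower. The lower ones included Spint1 and Serpinh1, which is a serpin by family but not a secreted inhibitor, and the list median was -0.01. Serpine2 and Slpi had been picked by the study from these same libraries, and their place in that count is not independent evidence. Timp1, an inhibitor of metalloproteases, had 1619 and 1125 counts in clone T, against 431, 809 and 2007, and T was above 20 of the 21 clones.

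Coagulation and vessel genes were split. Of 15 coagulation and fibrinolysis genes, 3 were higher (Serpine2, Pros1 and Plat) and 3 were lower, among them F2r and F2rl1. Plat, the tissue plasminogen activator, had 262 and 179 counts in clone T, against 44.4, 95.7 and 391, and Pros1, the anticoagulant protein S, had 253 and 329, against 1.72, 123 and 387. F2r, the thrombin receptor, had 3421 and 3228 counts, against 3301, 5078 and 7840, which put T above 1 clone. Of 19 angiogenic ligands, 5 were higher (Vegfc, Pdgfc, Thbs2, Angpt1 and Angptl2) and 5 were lower (Vegfa, Pdgfb, Thbs1, Cyr61 and Ctgf). Vegfc, a ligand of lymphatic endothelium, had 401 and 331 counts in T, against a median of 203. Vegfa had 336 and 290 counts in T, against 190, 597 and 2396, and Ctgf had 623 and 552, against a median of 1287. Of 6 tested endothelial genes, Tie1 was higher, with 43.0 and 37.0 counts, against a median of 9.41. The endothelial genes Kdr, Emcn and Cldn5 were at 0 in clone T, and the sum over 14 endothelial genes was 1370 counts in T, against 1020 to 2190 in the other clones.

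Icam1 had the largest difference among the called adhesion genes. Icam1 encodes a ligand of leukocyte integrins and had 382 and 329 counts in clone T, against 2.89, 19.8 and 212 in the lowest, median and highest other clone. Both libraries of T were above all 42 others, and the difference of 2.34 ± 0.70 did not pass over all genes (limma adjusted p = 1.0). Clone E had 32.7 counts. Of 14 adhesion molecules, 3 were higher (Icam1, L1cam and Nrcam) and 2 were lower. The lower ones were Vcam1, with 720 and 701 counts in T, against a median of 1314, and Cd24a, with 6333 and 5889, against 11244. Of 17 integrins, 2 were higher (Itga1 and Itga8) and 4 were lower (Itga3, Itga6, Itgb1 and Itgb4). Itgb1, the subunit shared by most matrix-binding integrins, had 12919 and 12536 counts in clone T, against 10090, 27532 and 39266, and T was above 1 clone.

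Actin, collagen and hyaluronan genes went both ways. Of 24 genes of actin bundling and invadopodia, 1 was higher and 6 were lower, and 3 of the 6 lie on chromosome 19. Lcp1 (L-plastin), which bundles actin, had 5746 and 5297 counts in T, against 77.3, 2185 and 6770. Ablim1, an actin-binding LIM protein on chromosome 19, had 261 and 224 counts in T, against 228, 1058 and 1767. Ahnak, a scaffold protein on the same chromosome, had 30157 and 52142 counts in T, against a lowest clone of 52324, and its T libraries stood apart from each other. Of 12 fibrillar collagens and matrix genes, 6 were higher (Col5a1, Col6a1, Col6a2, Pcolce, Plod2 and Mgp) and 2 were lower (Col12a1 and Fbln2), with a median of 0.21. Col6a1 had 798 and 794 counts in T, against 8.30, 447 and 1380, and Pcolce, which enhances procollagen processing, had 1920 and 1799, against a median of 758. Of 15 basement membrane genes, Agrn alone was called, and was lower (1686 and 1939 counts in T, against a median of 2814). Has2, which makes hyaluronan, had 4334 and 4207 counts in T, against 330, 2684 and 8882, and was 1 of 2 higher genes among 13 of the hyaluronan list, where Tmem2, a hyaluronidase, was lower.

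Cholesterol synthesis had the largest share of called genes among the lists with at least 10 tested genes. Of 23 genes, 16 were lower and 0 were higher, with a median of -0.29. Hmgcs1, an early enzyme of the pathway, had 2497 and 1875 counts in clone T, against 388, 4555 and 9639 in the lowest, median and highest other clone, and Cyp51 had 3034 and 2669, against 415, 5443 and 13702. Dhcr7, the last enzyme of the pathway, had 715 and 714 counts in T, against a median of 1293. T lay inside the range of the clones for each of these. Clone E had 1503 counts of Hmgcs1, 1854 of Cyp51 and 1230 of Dhcr7, each below the median clone. Srebf2, the transcription factor of the pathway, and Insig1, its inhibitor, were among the 16. Of 21 fatty acid genes, 3 were higher (Elovl4, Lpin1 and Acsl1) and 5 were lower, of which Scd1, Fads1, Fads2 and Fads3 lie on chromosome 19. Scd1, the stearoyl-CoA desaturase, had 1812 and 1637 counts in T, against 671, 2629 and 4846. Of 30 lysosomal genes, 3 were higher (Hexa, Fuca1 and Ppt1) and 3 were lower. Hexa had 418 and 447 counts in T, against 0.910, 196 and 448, and Fuca1 and Ppt1 lie on chromosome 4.

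Inflammatory ligands were higher in part. Of 26 chemokines and cytokines, 7 were higher (Cxcl10, Ccl2, Ccl5, Ccl7, Ccl25, Csf3 and Tslp) and 4 were lower (Cxcl16, Il1a, Il1b and Csf1). Ccl2, which attracts monocytes, had 856 and 646 counts in clone T, against 2.04, 152 and 5564, and T was above 20 of the 21 clones. Ccl5 had 396 and 254 counts in T, against a median of 133. Il1a had 58.5 and 10.6 counts in T, against a median of 99.6, so its T libraries were far apart. Of 30 interferon response genes, 6 were higher, among them Ifi44, Ddx58, Oas1a, Cxcl10 and Herc6, and 0 were lower, yet the median over the list was -0.10. Cxcl10 had 205 and 195 counts in T, against 29.0, 76.7 and 721. Among 17 genes for MHC class I presentation, 3 were higher (Psmb8, Psmb9 and Nlrc5) and 1, Erap1, was lower. Of 20 genes of innate defence, 5 were higher and 2, C3 and Ptgs2, were lower. Casp4, an inflammatory caspase, had 142 and 97.3 counts in T, against 1.03, 23.0 and 439.

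Growth factor pathways showed single large differences within mixed lists. Of 20 FGF and EGF genes, 3 were higher (Fgfr1, Fgfr2 and Btc) and 5 were lower (Fgfbp1, Egfr, Erbb3, Tgfa and Spry1). Fgfr1, a receptor of fibroblast growth factors, had 303 and 273 counts in clone T, against 0, 12.1 and 617, and T was above 19 of the 21 clones. Spry1, an inhibitor of that signalling, had 209 and 205 counts in T, against a median of 549. Among the TGF-beta and BMP genes, 26 were tested and 3 were higher (Tgfbr1, Tgfbr3 and Smad3) and 5 were lower (Tgfbr2, Bmp7, Skil, Id4 and Fst). Tgfbr2, the ligand-binding receptor, had 2324 and 1994 counts in T, against 1713, 3608 and 5589. Of 25 Wnt and Notch genes, 6 were higher (Wnt5a, Wnt10b, Sfrp1, Wisp1, Wisp2 and Hey1) and 8 were lower (Wnt7a, Wnt7b, Wnt9a, Fzd1, Fzd2, Jag1, Jag2 and Dll1). Wnt7a had 98.8 and 64.5 counts in T, against 6.06, 826 and 1519.

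Proliferation and hypoxia genes were higher more often than lower. Of 30 proliferation genes, 8 were higher (Top2a, Ccne2, Cdc20, Cdc25c, Mcm2, Mcm3, Mcm6 and Rrm2) and 1, Ccnd1, was lower, with a median of 0.13. Top2a, a topoisomerase of dividing cells, had 28356 and 31596 counts in clone T, against 13291, 21267 and 27229, so both libraries of T were above every clone mean. Ccne2 and Cdc20 were also above all clone means and lie on chromosome 4. Of 28 hypoxia and glycolysis genes, 8 were higher (Slc2a3, Pfkp, Eno2, Car9, Car12, Ndrg1, P4ha2 and Ankrd37) and 2, Bnip3 and Vegfa, were lower, with a median of 0.14. Ndrg1 had 3462 and 3000 counts in T, against 1047, 2011 and 9595.

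**Figure D2:**
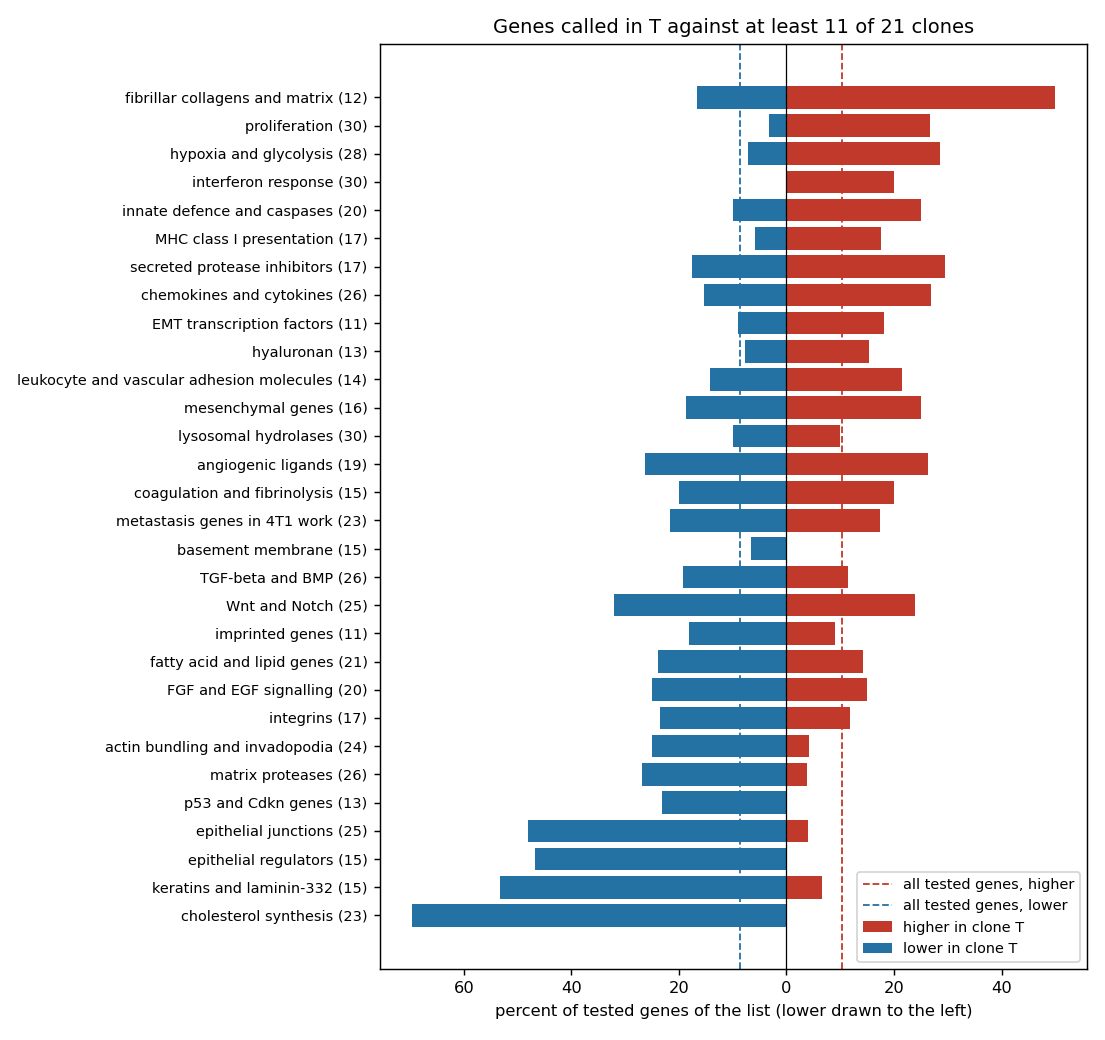
Share of the tested genes of each list that were higher (right) or lower (left) in clone T than in at least 11 of the 21 non-intravasating clones, in percent; only lists with at least 10 tested genes are drawn, without those of cell type markers, numbers in parentheses are tested genes, and dashed lines give the shares over all tested genes (10.3% higher and 8.66% lower). Lists of cholesterol synthesis, keratins and epithelial genes extend farthest to the left, and fibrillar collagens farthest to the right among the lists drawn.

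Ranked without a model, the mean of clone T was above all 21 clone means for 487 genes (3.57%) and below all of them for 246 (1.8%). With library B of T left out, these counts were 732 and 515. Both libraries of T were above all 42 others for 131 genes (0.961%) and below all 42 for 39 (0.286%). Of the 21 other clones, 16 stood outside the rest for more genes. When each clone was set against the 21 others among T and the non-intravasating clones, T had 733 genes outside, which placed it 17th of 22, and the non-intravasating clones had between 339 and 2995 (median 1230). Counted pair by pair with limma contrasts, clone T differed least from clone K, in 3230 genes (23.7%), and most from clone G, in 7083 genes (52.0%), with a median of 4688 over the 21 clones.

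Among the 12 genes with the widest gap between T and the nearest clone on the upper side were Fam83a, Slc35f3, Pgbd5, Gcat, Zeb1, Icam1, Ank2, Pfn2, Sobp, 4930503E24Rik and 2610305D13Rik. They were chosen for that gap, so their values describe and do not test it. Gcat, a mitochondrial enzyme that breaks down threonine to glycine, had 2202 and 1762 counts in clone T, against 373, 833 and 1191 in the lowest, median and highest other clone. Pfn2, a profilin that binds actin monomers, had 426 and 317 counts, against 42, 107 and 240. Ank2, or ankyrin-B, which links membrane proteins to the cytoskeleton, had 348 and 470 counts in T, against 2.65, 78.7 and 264. These 3 stood above the median of the clones by 2.38-fold for Gcat, 3.48-fold for Pfn2 and 5.2-fold for Ank2.

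On the lower side the 12 genes were Chn1, Slc44a2, Shroom1, Apobr, Sirpa, A430105I19Rik, Tacc1, Cacnb3, Fbxw4, Mmp11, Tmem2 and Cyb561a3. Sirpa, the receptor through which phagocytes read CD47, had 11 and 1.06 counts in clone T, against 17.4, 229 and 1124 in the lowest, median and highest other clone. Slc44a2, a choline transporter-like protein, had 586 and 606 counts, against 968, 2570 and 5149. Tacc1, a coiled-coil protein of the centrosome, had 122 and 111 counts, against 172, 377 and 759. Cacnb3, a subunit of voltage-gated calcium channels, had 195 and 188 counts in T, against 268, 458 and 847. The levels of T were 0.0263 of the clone median for Sirpa and between 0.139 and 0.552 of it for the others.

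Genes higher in clone T were concentrated on chromosome 4, a pattern noticed in these data and not asked for by the design. Of 837 tested genes there, 353 were higher (42.2%) and 22 were lower (2.63%), and 212 (25.3%) were above all 21 clone means. Chromosome 4 held 6.14% of the tested genes and 43.5% of those above all clone means. The median difference of T from the mean of the clones was 0.31, or 1.24-fold, and 86.7% of the genes lay above 0. In the non-intravasating clones the same median ran from -0.48 in clone S to 0.13 in clone U, and in clone E it was 0.02. Set against each of the 21 clones in turn, T had a positive median every time, between 0.16 and 0.74. The shift ran along the whole chromosome, since each of 8 windows of 20 Mb had a median between 0.25 and 0.37. Among its genes were Ccne2, with 292 and 230 counts in T, against 90.0, 145 and 224 in the other clones, and Fuca1, a lysosomal fucosidase, with 1034 and 930 counts, against 435, 666 and 887. Without chromosome 4, 1056 genes (8.25%) were higher and 1159 were lower by the rule of at least 11 clones, and 275 (2.15%) were above all clone means.

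Chromosome 19 was shifted the other way. Of 477 tested genes, 125 were lower (26.2%), 13 were higher (2.73%) and 41 (8.6%) were below all 21 clone means. The median difference of T was -0.20, below that of all 21 non-intravasating clones, which ran from -0.16 to 0.15. Against single clones the median lay between -0.35 and -0.05. Smaller shifts were seen for chromosome 9, with a median of 0.14 and 22.1% of genes higher, for chromosome 8, with a median of 0.14 and 15.7% higher, and for chromosome 16, with a median of -0.17 and 17.6% lower. Shifts of whole chromosomes were also found in the other clones. Of 440 medians, for 22 clones and 20 chromosomes, 12 were larger in size than that of T on chromosome 4, such as chromosome 8 in clone G (-0.58) and chromosome 4 in clone S (-0.48). None of the 4 genes past the single-value test lies on chromosome 4, and Pgbd5 and Slc35f3 both lie on chromosome 8.

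**Figure D3:**
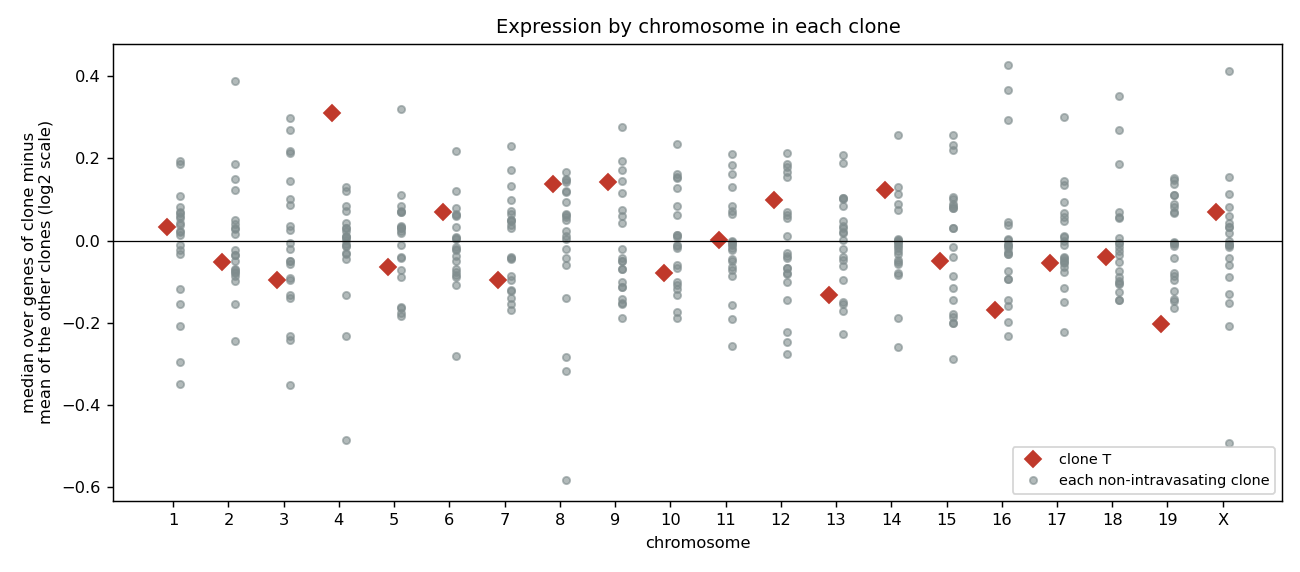
Median over the tested genes of each chromosome of the difference between a clone and the mean of the other clones, on the log2 scale; diamonds are clone T and points are the 21 non-intravasating clones. Clone T is the highest on chromosome 4 (0.31) and the lowest on chromosome 19 (-0.20), while other clones have larger shifts on other chromosomes.

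The genes that set clone T apart were then looked up in lung metastases and orthotopic tumors. The labels do not say that tumor cells were separated from mouse tissue there, and in such bulk samples fewer cells of a type and less RNA per cell cannot be told apart. Fam83a had 245 and 319 counts in the 2 lung metastases, against 36.8 and 20.2 in the 2 tumors. Slc35f3 had 73.1 and 60.3 counts in the lung metastases, against 3.68 and 11.4 in the tumors, and Pgbd5 had 132 and 88.4, against 6.91 and 7.30. Chn1 had 124 and 162 counts in the lung metastases, against 398 and 407 in the tumors. For all 4 genes the lung metastases lay on the side of clone T and did not overlap with the tumors. Serpine2 (12306 and 19277 counts in the lung metastases, against 2037 and 1126 in the tumors) and Slpi (17238 and 21405, against 4852 and 3815) did so too. Icam1 had 666 and 972 counts, against 326 and 269, and so was above the highest non-intravasating clone (212) in the tumors as well. Zeb1 had 76.1 and 108 counts in the lung metastases, against 63.5 and 89.4 in the tumors, which overlapped.

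Of the 131 genes above all other libraries in clone T, 123 had a mean of at least 50 counts in T. For 104 of these (84.6%) both lung metastases were above both tumors, against 34.7% of all tested genes. Of 38 genes below all other libraries in T, with a clone median of at least 50 counts, 24 (63.2%) were below both tumors in both lung metastases, against 34.0% of all tested genes. Outside chromosome 4 the share was 43 of 50 genes (86.0%). With only the A or only the B libraries of the specimens it was 72.4% each, against 34.5% and 26.2% of all tested genes. The same look-up for genes private to each non-intravasating clone gave shares from 4.76% to 79.2% (median 32.6%) for the upper side, with clone D next to T at 79.2%, clone B at 72.0% and clone S at 70.4%. For the lower side they ran from 0% to 80.8% (median 34.1%), and clones B, D and N were above T. In clone E, 2 of the 123 genes were above all 21 clones, and their median difference was 0.04.

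Whole chromosomes were looked up in the same way. The median difference of lung metastases from tumors was 0.23 over the genes of chromosome 4 and -0.17 over those of chromosome 19. Across 20 chromosomes it correlated with the medians of clone T with r = 0.86, against -0.49 to 0.41 for the 21 non-intravasating clones (median -0.09). This is a description, since all points share the same 2 libraries of T and the same 8 of the specimens. Sums over markers of other cell types differed between the specimens as well. The sum over 12 macrophage markers was 1400 and 3090 counts in the lung metastases, against 1030 and 815 in the tumors, and that over 13 markers of other leukocytes was 160 and 301, against 93.2 and 88.4. The sum over 10 fibroblast markers was 1650 and 4260 counts in the lung metastases, against 828 and 763 in the tumors. Pdgfra alone had 1492 and 3394 counts there, against 569 and 512 in the tumors, and so made up most of that sum. Postn, of the same list, went the other way, with 0.449 and 9.92 counts, against 52.0 and 80.0 in the tumors. The sum over 14 endothelial genes was 1970 and 1980 in the lung metastases, against 1410 and 1430. Among the non-intravasating clones, the highest sum was 934 counts for other leukocytes, 3960 for fibroblasts, 2190 for endothelial genes and 555 for macrophages. Whether the sums in the specimens came from other cells was not tested. The part of such cells in the differences between lung metastases and tumors was not tested either. In clone T the same macrophage markers summed to 117 counts, against 86.9 to 555 in the other clones, with Emr1, C1qa, C1qb, C1qc, Fcgr3 and Marco at 0. Markers of other leukocytes summed to 7.26 counts in T, against 11 to 934, and 10 of the 13 were at 0. Fibroblast markers summed to 493 counts in T, of which Pdgfra had 486, against 158 to 3960, with Lum, Thy1, Col3a1 and Postn at 0.

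**Figure D4:**
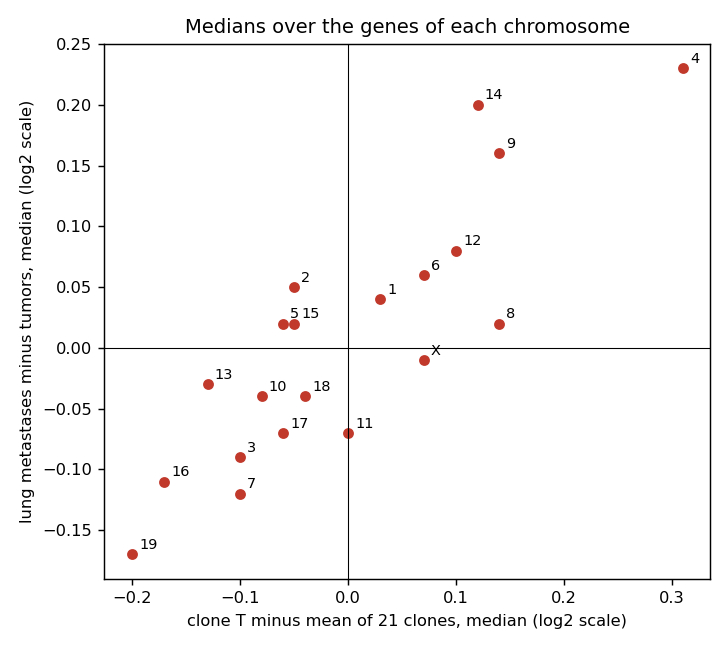
For each chromosome (number beside the point), the median over its tested genes of clone T minus the mean of the 21 non-intravasating clones (horizontal) and of lung metastases minus orthotopic tumors (vertical), both on the log2 scale. Chromosome 4 is highest on both axes (0.31 and 0.23) and chromosome 19 is lowest on both (-0.20 and -0.17).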

How the data were processed

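RNA-seq libraries were made, per the labels' protocols, from 100 ng of total RNA, purified with a Qiagen RNeasy kit and treated with DNase, with the NuGEN Ovation RNA-Seq V2 kit, and were read in 76 bases on a HiSeq instrument. The authors used Bowtie2, HTSeq and DESeq with mm10, per the submitters' processing notes. Neither versions nor strand use were given in the sources used here, so reads of overlapping and antisense genes cannot be separated.

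The authors deposited log2 values for 23481 genes in 54 libraries. From the values themselves, these follow a variance-stabilising curve on which 0 reads sit at 5.03. Inverting it gave normalized counts and reads that were whole within 0.01 for 100% of the values under 1000 reads. There were 0 columns without a sample, and 27 rows whose symbol had become a date are not named.

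Tests ran in R 4.3.3 with limma 3.58.1 (trend, two-sided, Benjamini-Hochberg, threshold 0.05) on the deposited log2 values: T against the spread of the clones (1 value per clone, 1 against 21), and T against each clone over 44 libraries, a gene counting when called against at least 11. Scripts were tested on simulated data. Positions are from RefSeq genes (GRCm38, the same assembly as mm10), with a chromosome for 99.5% of tested genes, and promoters from RefSeq GRCm38.p6.

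Named genes were Serpine2, Slpi, genes past the single-value test, the 12 per direction with the widest gap to the nearest clone, and at most 4 called genes per list by size; other names in a list are its called genes. The members and lists were chosen with earlier results of these data known. Alternatives included other scales, filters, normalizations, fits and leaving out each clone or library. Those on chromosomes and the look-up in specimens were chosen after seeing the data. A few genes that the naming rule picked are not reported here.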

Additional observations from a re-analysis of the deposited data

Results flagged for a closer look

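Data outside the comparison of clones, the lung metastases and orthotopic tumors, differed at the genes that set clone T apart. Of 123 genes above all other libraries in clone T, 104 were higher in both lung metastases than in both tumors (84.6%, against 34.7% of all tested genes). Of 38 genes below all other libraries in T, 24 were lower in both lung metastases than in both tumors (63.2%, against 34.0% of all tested genes). The same shares for genes private to non-intravasating clones reached 79.2% in clone D and 72.0% in clone B on the upper side, and 80.8% in B, 78.9% in D and 67.2% in N on the lower side. The genes of chromosome 4, shifted upward in clone T, had a median of 0.23 in lung metastases minus tumors on the log2 scale. Macrophage, leukocyte and fibroblast markers also summed higher in the lung metastases than in the tumors, and their part in these values was not tested.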

How the results depend on the processing

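For 135 named genes under 32 settings, which gave 4316 values, none changed sign, 2 calls were lost and 2 were gained. Lost were Slc35f3 and Pgbd5 on the scale of log2(normalized count + 1), and gained was Slc2a3, with no filter on low values (limma adjusted p = 0.033) and without clone G. The count of genes higher in T by the single-value test, 3, was 1 on that scale and 59 with no filter; the cause was not tested. Leaving out a library of T or a clone gave 3 to 6 higher genes, the 6 without clone S, and 1 lower gene every time. By the rule of at least 11 clones, 424 genes were higher and 227 lower with at least 16 clones, 27 and 11 with all 21, and 101 and 70 with a log2 difference of at least 1, all stricter by construction. Leaving out 1 library or clone gave 794 to 1334 higher and 743 to 1069 lower. The threshold stayed at 11 when a clone was left out, which is also stricter by construction. Ranked without a model, leaving out gave 485 to 732 genes above and 252 to 515 below, and leaving out a clone can only add such genes. Requiring both libraries outside all 42 gave 131 and 39, and 275 were above without chromosome 4. The share of genes private to T with higher lung metastases was 72.4% with the A libraries and 72.4% with the B libraries of the specimens. The median of chromosome 4 lay between 0.29 and 0.41 and that of chromosome 19 between -0.26 and -0.20. The letters A and B did not pair libraries in every pair of clones (r over 0.1 in 111 of 231 pairs of clones, with a median of 0.09). In the pairs with clone T, r ran from -0.42 to 0.64 with a median of 0.32, and a replicate block on them gave 1537 higher and 1325 lower genes. Clone T is 1 clone with 2 libraries of 15581390 to 18985628 reads, and its spread as a clone is assumed from the others. Low genes are compressed on the deposited scale, and lists were not recomputed under the alternatives.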

Other observations

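Neuropeptide and neuronal genes were few in these cells, with 6 of 23 tested, and 3 of the 6 were higher in clone T than in at least 11 clones. Cck, a peptide hormone of gut and brain, had 564 and 547 counts in clone T, against 0 in the lowest, 8.42 in the median and 2189 in the highest non-intravasating clone. Ngfr, the low-affinity neurotrophin receptor, had 112 and 126 counts in T, against a median of 7.80, and its ligand Bdnf had 614 and 554, against 367. Nptx1, a neuronal pentraxin, was lower, with 1077 and 1147 counts in T, against a median of 3798. In the look-up, Cck had 533 and 373 counts in the lung metastases, against 31.9 and 16.2 in the tumors.

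Of 11 imprinted genes, H19 was higher, with 32.0 and 33.8 counts in T, against a median of 13.7, and Igf2r and Cobl were lower. Of 13 p53 and Cdkn genes, 0 were higher and 3 (Bbc3, Zmat3 and Perp) were lower. Bbc3, which encodes the cell death protein PUMA, had 26.5 and 26.4 counts in T, against 23.5, 53.6 and 79.4. Of 23 genes tied to metastasis in work on 4T1, 4 were higher (Spp1, Gpnmb, Tnc and Tgfbr3) and 5 were lower (Ptgs2, Vcam1, Mmp14, Postn and Bmp7). Spp1, or osteopontin, had 17120 and 14586 counts in T, against 1652, 8374 and 48365. Of 5 tested macrophage markers, Mrc1 and Cd163 were higher and Cd68 was lower in T. Of 6 fibroblast markers Pdgfra was higher and Postn was lower. None of 3 tested markers of other leukocytes and none of 5 of lung, muscle, fat and blood cells was called.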
